A study of Homo sapiens with 2 samples.

Results

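The transcripts described here are of genes that the transcription factor NF-κB induces, most of whose products restrain its signalling or protect the cell from death. The 10 genes are TNFAIP3, TNIP1, BIRC3, TRAF1, CFLAR, ZC3H12A, MAP3K8, IER3, SOD2 and GADD45B. They were chosen by name, and all probe sets that the array's annotation assigns to these symbols were taken, 33 of the 54675 on the array. Of the 10 genes, 8 had at least 1 probe set of their own, out of 19775 genes with such a probe set on the array. ZC3H12A was read only through a probe set that the annotation also assigns to MIR6732, and no probe set was assigned to BIRC3 in the annotation used here, so BIRC3 was not analysed here.

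The data come from Affymetrix 3' expression arrays of KG1 cells, a progenitor-like line derived from human acute myeloid leukaemia. In the siRNA-Tbet group, cells received by electroporation 1.98 µg of siRNA targeting T-bet, the T-box transcription factor encoded by TBX21. In the siRNAc group the same amount of a control siRNA was used. After 5 h of rest, cells of both groups received interleukin-18 (IL-18) at 10 ng/ml for 12 h, so the arrays compare 2 IL-18-stimulated states and hold no unstimulated cells. Each group is 1 array of 1 cell line. No difference below therefore has a replicate check or a p-value, and the number of arrays limits the precision. Because RNA came from bulk cells, fewer cells of a type and less RNA per cell cannot be told apart.

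IL-18 signals through its receptor, MyD88, IRAK kinases and TRAF6 to the IκB kinase complex, which frees NF-κB from its inhibitors. NF-κB then switches on genes that end its own activity, such as the ubiquitin-editing enzyme A20 (TNFAIP3), and genes that block death receptor signalling, such as the caspase-8 inhibitor c-FLIP (CFLAR). The products of these genes set how long an inflammatory signal lasts and whether a stimulated cell survives it.

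The promoters of these genes carry the NF-κB binding motif unevenly, and 4 are shown because they belong to the A20 complex (TNFAIP3 and TNIP1), to the member with the most probe sets on 1 side only (GADD45B) and to the member that was higher with siRNA-Tbet (TRAF1). Each is a RefSeq window of GRCh38.p14 from 250 bases before to 50 bases after a start site, 5′ to 3′ on the gene's strand, and capitals mark matches to the 10-letter κB consensus on either strand. The windows are chr6:137867009-137867308 (plus strand) for TNFAIP3, chr5:151080985-151081284 (minus) for TNIP1, chr19:2475877-2476176 (plus) for GADD45B and chr9:120929122-120929421 (minus) for TRAF1.
TNFAIP3: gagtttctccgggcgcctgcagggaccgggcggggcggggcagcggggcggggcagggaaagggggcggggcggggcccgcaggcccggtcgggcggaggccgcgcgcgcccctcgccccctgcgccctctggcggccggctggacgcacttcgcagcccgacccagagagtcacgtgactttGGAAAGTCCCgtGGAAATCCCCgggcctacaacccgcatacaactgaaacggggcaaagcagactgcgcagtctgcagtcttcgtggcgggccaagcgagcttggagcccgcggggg
TNIP1: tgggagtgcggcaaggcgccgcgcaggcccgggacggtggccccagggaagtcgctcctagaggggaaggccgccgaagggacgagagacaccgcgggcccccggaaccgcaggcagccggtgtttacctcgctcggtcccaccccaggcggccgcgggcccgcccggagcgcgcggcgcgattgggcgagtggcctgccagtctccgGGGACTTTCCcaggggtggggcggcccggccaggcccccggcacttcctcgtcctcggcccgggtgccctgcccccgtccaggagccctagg
GADD45B: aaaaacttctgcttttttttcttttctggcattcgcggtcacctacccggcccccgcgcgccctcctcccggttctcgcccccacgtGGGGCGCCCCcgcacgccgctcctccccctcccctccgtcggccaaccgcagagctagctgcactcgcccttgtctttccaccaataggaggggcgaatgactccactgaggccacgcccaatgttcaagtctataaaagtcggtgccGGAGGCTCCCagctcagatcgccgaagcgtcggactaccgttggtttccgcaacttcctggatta
TRAF1: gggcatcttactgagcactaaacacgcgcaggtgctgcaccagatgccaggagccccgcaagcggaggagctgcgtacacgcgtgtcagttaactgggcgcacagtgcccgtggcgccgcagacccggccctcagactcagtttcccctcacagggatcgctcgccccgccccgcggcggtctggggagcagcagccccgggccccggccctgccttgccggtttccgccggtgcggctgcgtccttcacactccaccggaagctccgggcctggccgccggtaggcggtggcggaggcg
The TNFAIP3 window held 2 matches side by side, the TNIP1 window 1, and the GADD45B window 2, of which GGGGCGCCCC reads the same on both strands. None of the 3 TRAF1 windows held a match. RefSeq windows were matched for 9 of the 10 genes (IER3 was not matched), and 6 of these 9 had a κB match in at least 1 window: TNFAIP3, TNIP1, BIRC3, CFLAR, MAP3K8 and GADD45B. Among all 27305 genes with a window, 13.3% had a match. By window, 8 of the 20 of these genes held a match, against 11.3% of all 35116 windows. The genes were chosen as NF-κB-induced, so these shares are no independent finding. The T-box half-site GGTGTGA, searched on both strands for the targeted factor, was found in 0 of the 20 windows of these genes and in 3.45% of all 35116 windows. A match is a description of the letters, and binding was not measured.

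TBX21 itself was lower with its siRNA. It read 1839 with siRNA-Tbet and 3581 with siRNAc, in the arbitrary units of MAS5 signals, so 51.3% of the control signal was left. The brightest probe set of each array read 69761 with siRNA-Tbet and 62673 with siRNAc. Progenitor markers of KG1 were bright, with CD34 at 17130 with siRNA-Tbet and 15839 with siRNAc. On 1 probe set per gene, 5 of 6 measured KG1 markers (of 7 listed) were higher with siRNA-Tbet (summed signal 110428 against 97211). Of all measured genes, 46.5% were higher. All of the measured KG1 markers but SPN lie in the brightest of 10 bins of signal, where the median log2 ratio of all genes was 0.04. The higher genes SPN and MYB had other probe sets that were lower (log2 ratios -0.71, -0.27 and -0.47 for SPN, -0.32 for MYB). PTPRC, the lower gene, had others at 0.16, 0.17 and -0.37. The dimmest marker of another cell type was CD14, at 4.54 with siRNA-Tbet and 6.34 with siRNAc, too low to be called measured. The brightest was LYZ, at 684 with siRNA-Tbet and 965 with siRNAc. All listed markers of other cell types with a signal were dimmer than CD34. Their summed signals with siRNA-Tbet and siRNAc were 279 and 548 for 2 measured T cell markers of 3, 616 and 713 for 2 B cell markers of 3, 828 and 1184 for 2 monocyte markers of 3, 227 and 152 for 1 erythroid marker of 3, and 689 and 805 for 2 stromal markers of 3. The part of these shifts in the results was not tested.

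Most of the NF-κB-induced genes had slightly lower signals with siRNA-Tbet on the probe set chosen for them. TRAF1 was higher on both its probe sets, and the direction of CFLAR and SOD2 depended on the probe set. Each gene was represented by the brightest probe set assigned to it alone. Those with the suffix _x_at, whose probes can cross-hybridise, were passed over where another was measured. The brightest SOD2 probe set, shared with SOD2-OT1, had a log2 ratio of 0.16 and was thus not used. With these choices 7 of 8 genes were lower and 1 was higher with siRNA-Tbet, where 53.5% of all 12309 measured genes were lower and 46.5% higher. The median log2 ratio of the 8 genes was -0.14, against -0.02 for all measured genes. None of the 8 differed by 1.5-fold, a size passed by 5.00% of all measured genes in either direction. Only SOD2 passed 1.3-fold, and 8.29% of all measured genes were lower by that much. These are descriptions of 1 pair of arrays and of genes chosen with earlier results of these data known.

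**Figure D1:**
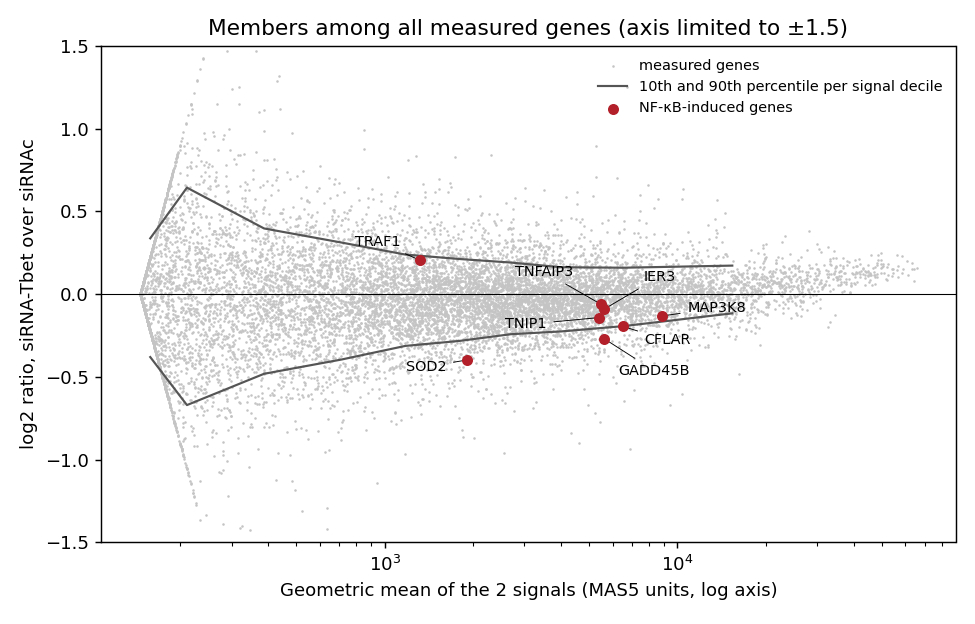
Log2 ratio of signals, siRNA-Tbet over siRNAc (vertical axis, limited to ±1.5), against the geometric mean of both signals (horizontal log axis, MAS5 units). Grey points are measured genes, lines are the 10th and 90th percentiles in each signal decile, and red points are the 8 NF-κB-induced genes, 7 of which lie below 0, with CFLAR at the lower line, SOD2 and GADD45B below it, and TRAF1 above 0.

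The disagreement between probe sets of the same gene on these arrays is called the technical spread here. It is the root mean square difference between the log2 ratios of a gene's 2 brightest probe sets, scaled to a single probe set by the square root of 2, in 10 bins of signal. The log2 spread was 0.18 in the bin that holds most of these genes (median signal 6542) and 0.26 in that of TRAF1 (median signal 1177). It leaves out variation between cultures and any error common to all probe sets of a gene. It can include differences in the transcript forms that probe sets read, so it is not measuring error alone. Of the 26 measured probe sets that belong to these genes alone, 15 were lower and 11 higher with siRNA-Tbet, while 51.6% of all measured probe sets were lower and 48.4% higher. CFLAR alone supplied 13 of the 26, 9 of them higher; without it 11 probe sets were lower and 2 higher. The technical spread of their bin was exceeded by 8 of the 26, 5 of them higher and 3 lower, where 12.5% of all measured probe sets were higher and 14.5% lower by that much. Of the 5 higher ones, 4 belong to CFLAR.

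**Figure D2:**
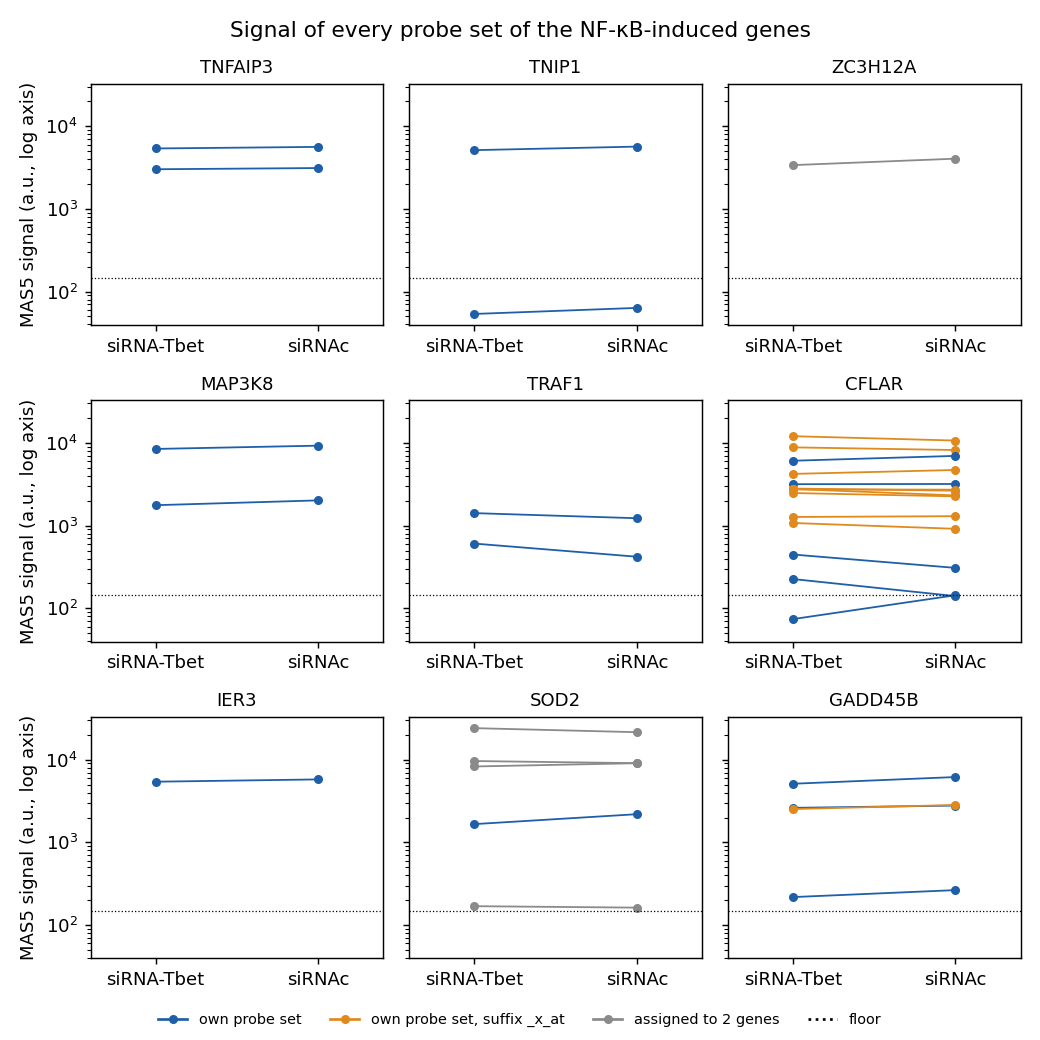
MAS5 signal (vertical log axis, arbitrary units) of every probe set of 9 genes on the siRNA-Tbet array (left point) and the siRNAc array (right point), joined by a line. Orange marks suffix _x_at, grey marks probe sets assigned to 2 genes and the dotted line is the floor of 146; the lines are nearly flat, with TRAF1 sloping down to siRNAc at each of its 2 probe sets and CFLAR lines sloping both ways.

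Of the 8 genes, TNFAIP3 differed least. It encodes A20, which edits ubiquitin chains on RIPK1 and TRAF6 and so shuts off IκB kinase. Its probe set 202644_s_at read 5377 with siRNA-Tbet and 5616 with siRNAc, and 202643_s_at read 3013 with siRNA-Tbet and 3117 with siRNAc. The log2 ratios of -0.06 and -0.05 lay within the technical spread, and the first stood at percentile 35.9 among the 1231 genes of its signal decile. TNIP1 encodes ABIN1, the ubiquitin-binding adaptor that brings A20 to its substrates. Its probe set 207196_s_at read 5131 with siRNA-Tbet and 5662 with siRNAc, a log2 ratio of -0.14 that was also within the spread. The second TNIP1 probe set, at 53.6 with siRNA-Tbet and 63.4 with siRNAc, lay below the floor on both arrays and gives no ratio.

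ZC3H12A encodes Regnase-1, an endoribonuclease that degrades inflammatory mRNAs such as IL6. The probe set assigned to ZC3H12A and MIR6732, a microRNA gene, read 3382 with siRNA-Tbet and 4045 with siRNAc. That is a log2 ratio of -0.26, beyond the technical spread of 0.20. The probe set was left out of the gene counts because the annotation assigns it to 2 genes, and which transcript it reads was not tested. MAP3K8 encodes TPL2, the kinase that NFKB1 p105 holds inactive until IκB kinase releases it to activate the ERK pathway. Its probe set 205027_s_at read 8462 with siRNA-Tbet and 9272 with siRNAc. Its probe set 235421_at read 1767 with siRNA-Tbet and 2020 with siRNAc. Both were lower with siRNA-Tbet, by 0.13 and 0.19 on the log2 scale, and both were within the spread.

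TRAF1, an adaptor that joins cIAP ubiquitin ligases to TNF receptor family members, was the only gene of the group that was higher with siRNA-Tbet on the probe set chosen for it. Probe set 205599_at read 1417 with siRNA-Tbet and 1229 with siRNAc, a log2 ratio of 0.21 that lay within the technical spread of 0.26. Probe set 235116_at read 607 with siRNA-Tbet and 421 with siRNAc. That ratio of 0.53, or 1.44-fold, exceeded the spread of 0.36 at its signal. TRAF1 stood at percentile 86.2 of its signal decile, while the other 7 genes stood between percentiles 3.6 and 35.9 of theirs.

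CFLAR was the gene on which the probe sets disagreed most. It encodes c-FLIP, a catalytically inactive relative of caspase-8 that blocks caspase-8 activation at death receptors and is spliced into long and short forms. Of its 14 probe sets 13 were measured, 9 of them higher and 4 lower with siRNA-Tbet, with log2 ratios between -0.20 and 0.63. The brightest probe set without the suffix _x_at, 239629_at, read 6091 with siRNA-Tbet and 6975 with siRNAc, a log2 ratio of -0.20 just beyond the spread of 0.18. The brightest of all, 209939_x_at, read 12070 with siRNA-Tbet and 10693 with siRNAc, a ratio of 0.17 that was about the size of the spread. Those 2 readings lie on opposite sides of 0.

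Among the 9 CFLAR probe sets with the suffix _x_at, 7 were higher and 2 lower with siRNA-Tbet, with a median log2 ratio of 0.11. The highest of them, 208485_x_at, read 2774 with siRNA-Tbet and 2321 with siRNAc. Its log2 ratio of 0.26 was beyond the spread of 0.20. It is based on a RefSeq record, which the chosen probe set 239629_at is not. Probe sets of 1 gene can share target sequence and are not independent readings. Among the other 4 measured ones, 211317_s_at hardly differed (3171 with siRNA-Tbet and 3190 with siRNAc), and 235427_at was higher with siRNA-Tbet (447 against 308 with siRNAc, log2 ratio 0.54). The dim probe set 217654_at read 226 with siRNA-Tbet and 140 with siRNAc, below the floor, so it was at least 1.54-fold higher. It was the only one of the 26 probe sets past 1.5-fold, a size that 2.87% of all measured probe sets passed as higher. Which splice forms each probe set reads was not determined here.

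**Figure D3:**
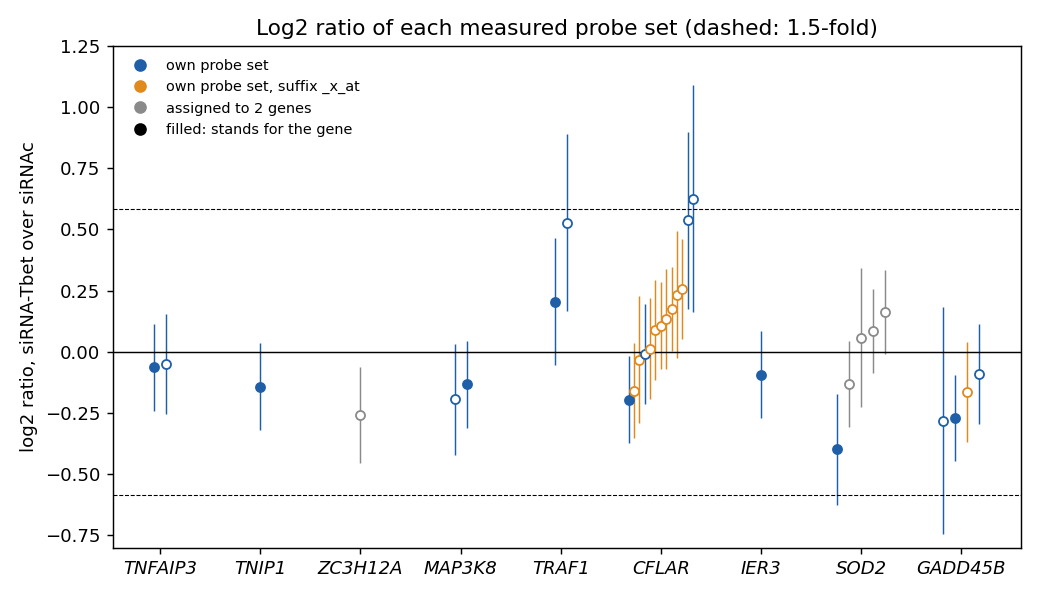
Log2 ratio, siRNA-Tbet over siRNAc (vertical axis), of each measured probe set by gene; bars show plus and minus the technical spread between probe sets at that signal, filled points stand for the gene, and dashed lines mark 1.5-fold. The 4 GADD45B points lie below 0, the 2 TRAF1 points above it, and the CFLAR points run from -0.20 to 0.63 on both sides; the highest CFLAR point is a lower bound.

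GADD45B and SOD2 had the lowest log2 ratios among the 8 representative probe sets. GADD45B is a stress-induced protein through which NF-κB limits JNK signalling by binding the kinase MKK7. Its 4 probe sets were all lower with siRNA-Tbet. They read 5119, 2617, 2531 and 218 with siRNA-Tbet, against 6172, 2788, 2835 and 265 with siRNAc in the same order. The log2 ratios ran from -0.28 to -0.09, and only that of the brightest, 207574_s_at (-0.27), exceeded the technical spread. GADD45B stood at percentile 5.9 of its signal decile.

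SOD2 encodes the manganese superoxide dismutase of mitochondria, an antioxidant enzyme that protects cells from TNF-induced death. The 1 probe set assigned to SOD2 alone, 1566342_at, read 1664 with siRNA-Tbet and 2193 with siRNAc. It was 1.32-fold lower, 1.75 times the technical spread, and stood at percentile 3.6 of its decile. The 4 probe sets assigned to both SOD2 and SOD2-OT1, a transcript at the same locus, did not share that size. They read 24097, 9639, 8283 and 169 with siRNA-Tbet, against 21520, 9083, 9074 and 163 with siRNAc in the same order. Of these 4, 3 were higher and 1 lower with siRNA-Tbet, with log2 ratios from -0.13 to 0.16, each within the spread. The direction of SOD2 therefore depends on the probe set read.

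IER3, an early response gene whose product modulates apoptosis, was read by a single probe set. Probe set 201631_s_at read 5420 with siRNA-Tbet and 5779 with siRNAc, a log2 ratio of -0.09 within the technical spread. It stood at percentile 27.5 of its signal decile.

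The pathway and related genes were examined through 5 further lists. Only that from the IL-18 receptor to the IκB kinase lies wholly upstream of NF-κB. On the probe set chosen for each gene, 0 of the measured members differed by 1.5-fold, a size that 5.00% of all measured genes passed. Of their 121 measured probe sets, 1 was 1.5-fold higher with siRNA-Tbet (of IRAK2) and 3 were lower (of CYLD, RBCK1 and XIAP, log2 ratios -0.69, -0.63 and -0.64), against 2.87% and 3.23% of all measured probe sets. Partners of A20 in ubiquitin editing had the lowest median log2 ratio, -0.16, with 8 of 9 measured genes lower and 1 higher with siRNA-Tbet. RNF11, a RING protein of the A20 complex, read 6525 with siRNA-Tbet and 8732 with siRNAc. It was 1.34-fold lower, beyond the technical spread of 0.18. CYLD, the deubiquitinase that removes K63-linked chains, read 3686 with siRNA-Tbet and 4520 with siRNAc, with 5 of 7 measured probe sets lower. TNIP2, a relative of TNIP1, read 1551 with siRNA-Tbet and 1890 with siRNAc, with 2 of 3 probe sets lower. With each gene's second brightest probe set the list was split, 3 higher and 3 lower, with a median of -0.0017. The median was further below 0 with a floor at percentile 25, no floor or the median over probe sets (-0.25 each), with RefSeq-based probe sets (-0.27, 4 genes) and with plain ones (-0.29, 7 genes).

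Direct partners and paralogs of the NF-κB-induced genes had a median log2 ratio of -0.06, with 9 of 13 lower, and -0.13 over 5 second brightest or -0.01 over 8 RefSeq-based probe sets. MALT1, the protease that cleaves A20 and Regnase-1, read 1198 with siRNA-Tbet and 1508 with siRNAc, and its 3 probe sets were all lower. IER2, an immediate early gene, read 5468 with siRNA-Tbet and 6418 with siRNAc. GADD45G, a paralog of GADD45B, read 181 with siRNA-Tbet and 215 with siRNAc, close to the floor.

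The death receptor list holds genes of the receptor complex, the caspase inhibitor XIAP and the survival genes BCL2A1, BCL2L1 and MCL1. It was split, 6 higher and 5 lower with siRNA-Tbet, with a median of 0.04. With second brightest probe sets 2 were higher and 5 lower, and the median was -0.08. TRADD, the adaptor of TNF receptor 1, read 806 with siRNA-Tbet and 1062 with siRNAc, with both its probe sets lower. XIAP, a caspase inhibitor, read 3908 with siRNA-Tbet and 4652 with siRNAc, with 6 of 7 probe sets lower. BCL2L1, which encodes the survival protein BCL-XL, read 2513 with siRNA-Tbet and 2137 with siRNAc, with 3 of 3 probe sets higher.

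The subunits of NF-κB and its inhibitors, which bind or restrain binding at κB motifs like those shown above, had a median of 0.01, with 6 higher and 3 lower. It was -0.02 with RefSeq-based probe sets (2 higher, 4 lower) and -0.01 with second brightest ones (2 higher, 3 lower). NFKB2, the p100 precursor, read 3538 with siRNA-Tbet and 2757 with siRNAc, but its other probe set had a log2 ratio of -0.07. RELA, the main activating subunit, read 3200 with siRNA-Tbet and 4010 with siRNAc, and its other probe set was on the opposite side at 0.28. NFKBIB, encoding IκBβ, read 721 with siRNA-Tbet and 588 with siRNAc, with 1 of 3 probe sets higher. For each of these 3 genes the probe sets disagreed in direction.

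From the IL-18 receptor to the IκB kinase, 6 of 13 measured genes were higher and 7 lower with siRNA-Tbet, with a median log2 ratio of -0.05. IRAK2, a kinase of the receptor complex, read 3427 with siRNA-Tbet and 4206 with siRNAc. Its other probe set, dim at 315 with siRNA-Tbet and 186 with siRNAc, had a log2 ratio of 0.76. TAB1, a partner of the kinase TAK1, read 483 with siRNA-Tbet and 589 with siRNAc. IRAK1, a kinase of the same receptor complex, read 7892 with siRNA-Tbet and 9027 with siRNAc, and its other probe set had a ratio of 0.04. This median turned positive when all probe sets of a gene were summarised by their median (0.11), with second brightest (0.09) or RefSeq-based probe sets (0.12), and when the floor was set to the 75th percentile (0.02).

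**Figure D4:**
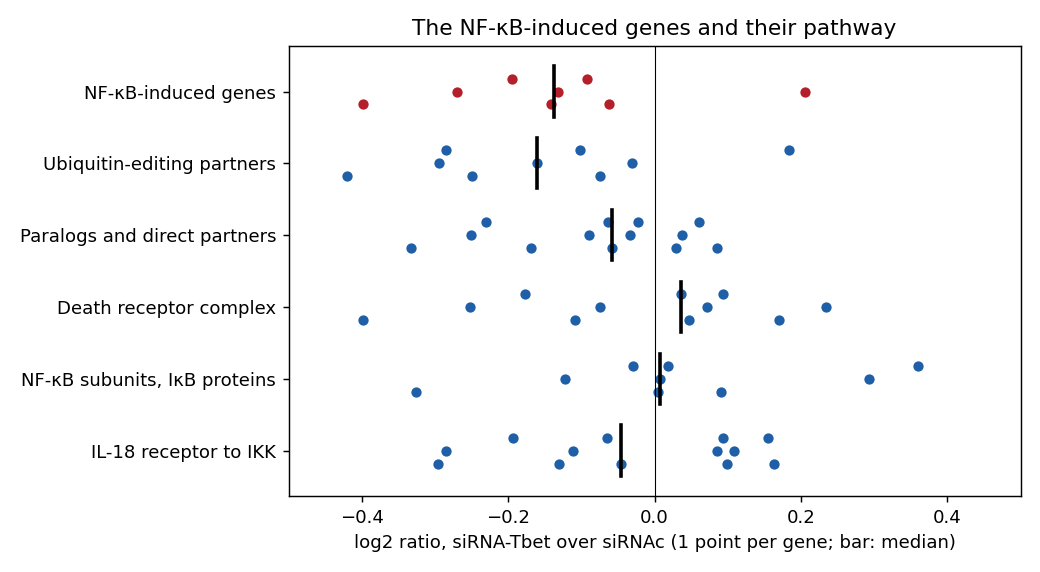
Log2 ratio, siRNA-Tbet over siRNAc (horizontal axis), of each measured gene in the NF-κB-induced genes (red) and 5 pathway lists (blue), 1 point per gene, with black bars at the medians. The medians run from -0.16 for the ubiquitin-editing partners and -0.14 for the NF-κB-induced genes to 0.04 for the death receptor list. That list is labelled death receptor complex and also holds survival genes. Every list has genes on both sides of 0.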

How the data were processed

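The authors deposited 1 linear signal intensity for each probe set of each array, made with MAS5 (version not stated) per the submitters' processing notes. MAS5 subtracts mismatch signal, which makes low intensities noisy. Both arrays had a 2% trimmed mean of 1000.1, so the intensities were used as deposited, with no further normalization. Signals below 146, the higher of the 2 array medians over non-control probe sets, were raised to it as a floor, and probe sets above the floor on at least 1 array were called measured. Names come from the platform annotation, with symbols updated through Entrez numbers against RefSeq GRCh38.p14; 41091 had 1 gene, of which nearly all matched, and 1801 had several and stand for no single gene. Ratios are siRNA-Tbet over siRNAc on the log2 scale. The technical spread and a gene's percentile were taken in 10 bins of signal.

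The members, gene lists and fixed folds were chosen with earlier results of these data known. All members and their probe sets are named; of each pathway list, the 3 measured genes with the largest ratios and any past 1.5-fold. The marker lists (KG1, T cell, B cell, monocyte, erythroid and stromal) are given by their summed signals. IFNG, the other check gene, read 31243 with siRNA-Tbet and 35136 with siRNAc. The calculation was tested on simulated data. Alternatives covered normalization, floor, choice of probe set and fold; 3 were added after seeing the data. Python 3.11.15, pandas 2.3.3, scipy 1.17.1 and statsmodels 0.14.6 were used.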

Additional observations from a re-analysis of the deposited data

How the results depend on the processing

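With 1 array per group, no replicate could be left out. No paired analysis was possible because each group holds 1 array. The 3 floor alternatives left the median of the NF-κB-induced genes as it was. It stayed negative under the 9 alternatives that changed it, between -0.20 with plain probe sets only and -0.05 with second brightest probe sets. The gene counts were the same, 1 higher and 7 lower, under the scaling and floor alternatives. The probe set counts (11 higher, 15 lower) were 12 and 14 under the 3 scaling alternatives, 11 and 17 with a floor at percentile 25 or none, and 8 and 14 with the floor at percentile 75. The number of genes higher with siRNA-Tbet was 2 with the median over probe sets, 2 with shared probe sets admitted, 2 when _x_at probe sets were not avoided and 2 with probe sets of RefSeq records only. The number lower was 4 of 5 genes both with second brightest probe sets and with plain probe sets only, since fewer genes have such a probe set. With a fold of 1.3 in place of 1.5, 1 gene was lower past it. CFLAR was positive in 3 of 12 alternatives and SOD2 in 1 of 10 (0.16, shared probe sets admitted). The CFLAR values were 0.11 with the median over probe sets, 0.17 with _x_at probe sets not avoided and 0.26 with RefSeq-based ones. Among the negative CFLAR values, only that with second brightest probe sets (-0.01) came from another probe set than the chosen one. The other 6 genes kept their sign in every alternative that gave them a value. IER3 and TNIP1 each had 1 measured probe set, so the choice of probe set could not change their sign. Only the scaling alternatives moved these genes, to at most -0.07 for IER3 and -0.12 for TNIP1. Admitting shared probe sets, using _x_at probe sets and using RefSeq-based ones were chosen after seeing the data, as was running the alternatives on the pathway lists. The technical spread was largest, 0.46 on the log2 scale, in the bin with a median signal of 211, which limits CFLAR 217654_at and the dimmest GADD45B probe set.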

Other observations

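The genes given here were picked from the lists after their values were seen, and each differed little on its brightest probe set. They do not stand for the lists, where NFKB2 (0.36), BCL2L1 (0.23) and CYLD (-0.29) had larger log2 ratios. NFKBIA, which encodes the feedback inhibitor IκBα, read 19113 with siRNA-Tbet and 20808 with siRNAc, a log2 ratio of -0.12 on its 1 probe set. NFKBIZ, encoding the nuclear IκBζ, read 19182 with siRNA-Tbet and 18020 with siRNAc, with its 2 probe sets on opposite sides of 0. BCL2A1, a BCL2-related survival gene, read 5986 with siRNA-Tbet and 5698 with siRNAc. BIRC2, the paralog of BIRC3, read 5450 with siRNA-Tbet and 5315 with siRNAc. N4BP1, a MALT1 substrate that restrains NF-κB signalling, read 3445 with siRNA-Tbet and 3527 with siRNAc, and its other 3 measured probe sets had log2 ratios of -0.13, -0.31 and -0.40.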
